A study of Mus musculus with 4 samples.

Results

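The genes described here build, hold and turn over the actin cytoskeleton. They are 42 genes chosen by symbol, with no measured value in the rule but with earlier results of these data known, and all 42 were listed in the tables of all 4 mice, among 16408 genes outside the spike-ins and the mitochondrial rows. By role, 2 code for cytoplasmic actins, 6 for proteins that bind monomers or turn filaments over, 3 for filament cappers and 8 for the branching machinery. A further 10 code for proteins that crosslink or coat filaments, 2 for non-muscle myosin heavy chains, 9 for linkers to membranes and adhesions, and 2 for spectraplakins, which also bind microtubules.

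Actin monomers assemble into filaments that are capped, branched, bundled and severed, and myosins pull on them. In endothelial cells (EC) the cortical network under the membrane holds junctions together, and stress fibres align with flow. Smooth muscle cells of the aortic wall use the same families of proteins, often through other members, to anchor the contractile apparatus.

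Single cells had been sorted as CD31+ CD45- TO-PRO-3- cells from whole digested aortas into 384-well plates, 1 plate per mouse, and sequenced with SORT-seq, which counts the 3′ ends of transcripts by unique molecular identifiers (UMIs). Of the plates, 2 were labelled Epas1 EC-KO (Epas1fl/fl, Cdh5Cre/+) and 2 Epas1 EC-WT (Epas1fl/fl, Cdh5+/+). All mice carried floxed Epas1, which codes for a hypoxia-inducible factor, and all were given tamoxifen when 6 weeks old and taken 2 weeks after that. Cre was driven by Cdh5, so that deletion was directed to EC, and the controls were littermates without Cre.

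Wells with at least 1000 nuclear UMIs and at most 25% mitochondrial UMIs were kept as cells, 441 in all, and split by marker genes that include none of the 42. A cell was called EC when its UMIs on 14 endothelial genes at least equalled those on 11 smooth muscle genes, and smooth muscle-like otherwise. EC numbered 144 and 92 in mice 1 and 2 labelled EC-KO and 111 and 70 in mice 1 and 2 labelled EC-WT, with 549570 to 1001705 UMIs per mouse. Smooth muscle-like cells numbered 13, 6, 3 and 2 in the same order, with 87196, 97297, 7614 and 16518 UMIs, so that 1 UMI stood for 131 counts per 1000000 UMIs (CPM) in mouse 1 labelled EC-WT. Endothelial markers took up 1.39% to 1.74% of EC UMIs, and immune markers, of which 4 of 10 had a row, at most 6.63 CPM.

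Mouse 1 labelled EC-KO stood apart with 10.5 reads per UMI, against 18.6 to 22.1 in the other mice, and with 7.31% of its EC UMIs on the ribosomal RNA gene Rn45s, against 3.48% to 4.06%. The label of the genotype was not checked by Epas1 itself, whose 3′ ends need not lie in the deleted part: it stood at 3103 and 3347 CPM in the mice labelled EC-KO and 3334 and 2415 CPM in those labelled EC-WT. The study's methods describe fewer analysed cells from EC-KO than from EC-WT mice, whereas more wells passed the filter here in the plates labelled EC-KO (255 against 186). The study also describes checks of the deletion by PCR of endothelial RNA and by staining, which are not tied in the labels to these 4 mice. Groups are therefore named throughout by the labels of the deposit.

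In EC, 4 of the 42 genes stood above 1000 CPM and together took up 37.9% of the genes' UMIs. Since 1 UMI marks 1 transcript whatever its length, these levels need no scaling by length, but those of Actg1, Actb and Tmsb4x may hold or lack reads of near-identical copies. Tmsb4x (thymosin beta 4, which holds actin monomers in reserve; chrX:167207093-167209315, minus strand, GRCm38) had 1833 and 2038 CPM in the mice labelled EC-KO and 2546 and 2032 CPM in those labelled EC-WT. Actg1 (gamma-actin; chr11:120345690-120348542, minus strand) had 2018, 1981, 2149 and 2254 CPM in the same order. Sptbn1 (beta-spectrin, part of the mesh under the membrane; chr11:30099395-30268175, minus strand) had 1926, 1835, 1823 and 1931 CPM. Actb (beta-actin; chr5:142903115-142906754, minus strand) had 1507, 1713, 1779 and 1896 CPM. The means of these 4 genes were 2112 ± 305, 2100 ± 126, 1878 ± 57.7 and 1724 ± 163 CPM (SD, n = 4 mice), so that Tmsb4x and Actg1 did not differ beyond their spread, and the ranges of Sptbn1 and Actb overlapped.

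The next gene lay well below them. Cfl1 (cofilin, which severs filaments) had 793 ± 106 CPM and Sptan1 (alpha-spectrin) 773 ± 33.9 CPM, and the ranges of these 2 genes overlapped. Actn4 (an alpha-actinin crosslinker), Dst (dystonin, a spectraplakin) and Arpc2 (a subunit of the Arp2/3 branching complex) followed at 684 ± 91.4, 663 ± 55.8 and 642 ± 65.9 CPM. At the low end, 6 genes stood below 100 CPM: Myh10 (non-muscle myosin IIB), Capza2 and Capza1 (capping protein alpha), Arpc3, Ezr (ezrin, a linker of filaments to the membrane) and Cnn2 (calponin 2, which coats filaments). Cnn2 was the lowest at 44.2 ± 17.8 CPM, and its values in the 4 mice ran from 26.5 to 60.0 CPM.

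**Figure D1:**
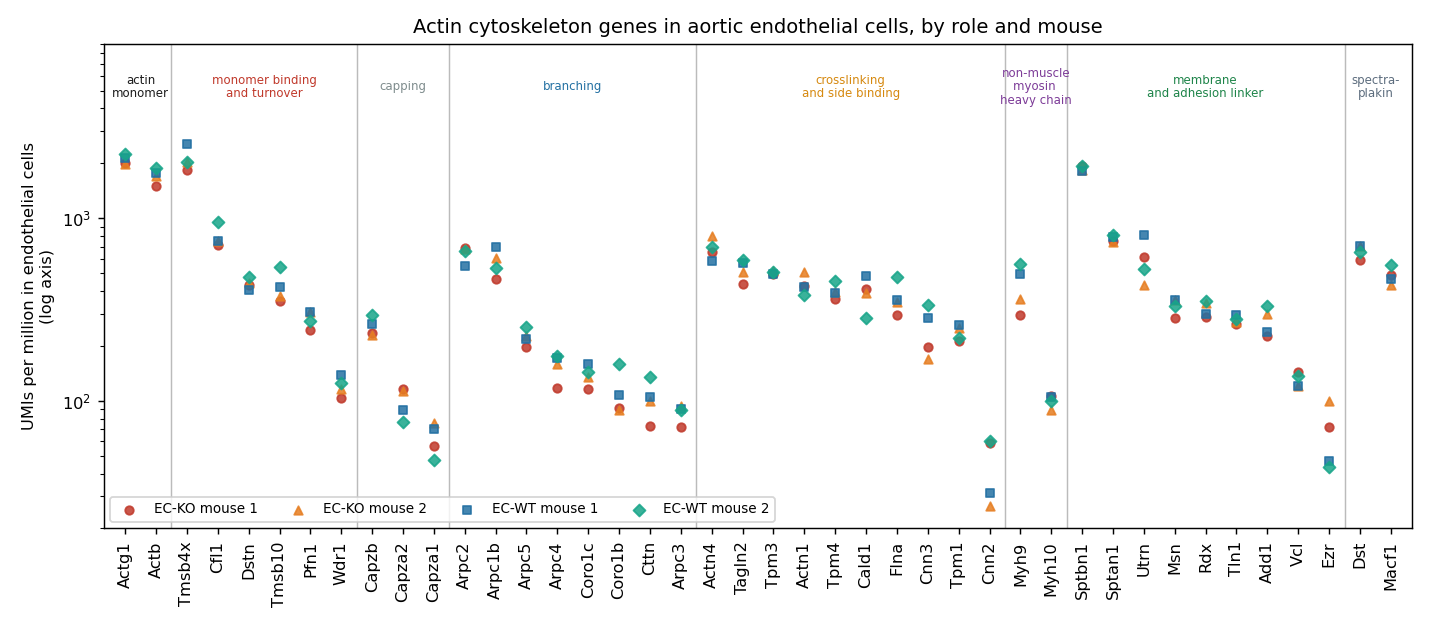
CPM (log axis) of each of the 42 genes in EC, with 1 symbol per mouse and the genes grouped by role. Tmsb4x, Actg1, Sptbn1 and Actb sit between 1507 and 2546 CPM, and Cnn2 is the lowest, between 26.5 and 60.0 CPM.

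Spread between mice differed from gene to gene. The coefficient of variation over the 4 mice was 1.65% for Tpm3 (a tropomyosin, which winds along the filament), whose levels were 497, 513, 497 and 510 CPM, and 3.07% for Sptbn1. It was 39.7% for Ezr and 40.3% for Cnn2, and the median over the 42 genes was 12.5%.

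UMIs of the 42 genes were found in 16.3% (Cnn2) to 99.3% (Tmsb4x) of the 417 EC. Wells in plate rows L to P, none of which passed the filter and whose medians were 21 to 63 UMIs, served as background. Of 480 such wells, 63 (13.1%) held a UMI of Actg1, the highest share of any of the genes, and 40 (8.33%) held one of Tmsb4x. For every gene the share was higher in EC than in these wells. EC were chosen for at least 1000 UMIs, so depth fixed this outcome, and it cannot show levels above background. Ezr and Wdr1 (which helps cofilin to take filaments apart) were found in 0 of 480, which allows a share of up to 0.625%. With each cell thinned to 1000 UMIs, Tmsb4x was still found in 87.8% of EC and Cnn2 in 3.60%.

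Correlations between the genes were taken from cell to cell within each mouse. Over 264 EC with at least 4000 UMIs, the correlation of log2(CPM + 100) between 2 of the genes, averaged over mice, had a median of 0.024 over 861 pairs, and 111 of these pairs lay above 0 in 4 of 4 mice. The highest was that of Tmsb4x and Cfl1, with an average of 0.28 and values of 0.31, 0.34, 0.11 and 0.36 in the 4 mice. Capza1 and Vcl (vinculin, which ties filaments to adhesions) followed with 0.25, and Actg1 and Cald1 (caldesmon, a filament-coating protein) with 0.24. The lowest was that of Tmsb10 and Utrn, with an average of −0.25 and values below 0 in 4 of 4 mice. These are descriptions of cells that share a library and its depth, in sparse counts. The share of UMIs on the 42 genes was 2.09%, 2.12%, 2.05% and 2.04% in cells of 1000 to 2000, 2000 to 4000, 4000 to 8000 and over 8000 UMIs, as means of the 4 mice. These means hide a difference between the labels: in the shallowest cells the share was 1.87% and 1.73% in the mice labelled EC-KO and 2.38% and 2.40% in those labelled EC-WT, and in the deepest 1.91% and 2.01% against 2.07% and 2.18%. In cells of 4000 to 8000 UMIs it was 1.85% and 2.09% against 2.15% and 2.10%, so that the difference was small between 2 of the mice.

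To ask whether actin cytoskeleton genes differ between EC labelled EC-KO and EC-WT for Epas1, UMIs were summed over the EC of each mouse and compared between the labelled groups. In such sums, fewer cells of a kind and less RNA per cell cannot be told apart. None of the 42 genes passed the test, and neither did any of the 8116 genes tested (0%; edgeR quasi-likelihood test, adjusted P under 0.05; DESeq2 also called 0). The 2 cytoplasmic actins lay within 0.16 of 0 on the log2 scale. At an unadjusted P under 0.05 there were 3 of the 42 genes, and 445 of all 8116 (5.48%).

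Those 3 genes were Cnn3, Myh9 and Ezr. Cnn3 (calponin 3; chr3:121426497-121458207, plus strand) had 198 and 170 CPM in the mice labelled EC-KO and 285 and 337 CPM in those labelled EC-WT. Both mice labelled EC-KO were lower, and the log2 fold change, EC-KO over EC-WT, was −0.72 (SE 0.20, edgeR adjusted P = 0.853). Myh9 (non-muscle myosin IIA, the main motor of EC stress fibres; chr15:77760587-77842175, minus strand) had 295 and 360 CPM against 496 and 559 CPM. The groups did not overlap, with a log2 fold change of −0.66 (SE 0.19, edgeR adjusted P = 0.853).

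Ezr (chr17:6738041-6782784, minus strand) had 71.9 and 99.5 CPM in the mice labelled EC-KO and 46.8 and 43.7 CPM in those labelled EC-WT. Here both mice labelled EC-KO were higher, with a log2 fold change of 0.94 (SE 0.29, edgeR adjusted P = 0.858). Its share of the UMIs of ezrin, radixin and moesin together was 11.2% and 12.4% in the mice labelled EC-KO and 6.67% and 6.02% in those labelled EC-WT.

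Actb had a log2 fold change of −0.16 (SE 0.18), with a 95% interval (normal approximation) from −0.52 to 0.20, and Actg1 one of −0.10 (SE 0.19, −0.47 to 0.26). For Tmsb4x the log2 fold change was −0.21 (SE 0.20), for Cfl1 −0.18 (SE 0.19), for Sptan1 −0.07 (SE 0.18) and for Sptbn1 0.04 (SE 0.19). The remaining genes at either end were Coro1b (coronin 1B, which regulates branches) at −0.52 (SE 0.24), Capza2 at 0.50 (SE 0.24) and Actn1 (alpha-actinin 1) at 0.26 (SE 0.19). The edgeR adjusted P was 0.882 or more for all of these, and the intervals do not show that the levels are alike.

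Across the 42 genes, the median log2 fold change was −0.09, and 30 of them lay below 0 against 49.8% of all genes tested. In 15 of the 42 both mice labelled EC-KO lay below both labelled EC-WT, against 20% of all genes, and in 4 they lay above, against 15.4%. By role, 7 of 8 branching genes and 5 of 6 genes of monomer binding and turnover lay below 0, with medians of −0.21 and −0.20, whereas 1 of 3 cappers did, with a median of 0.18, and the 10 crosslinking genes had a median of −0.01. The 42 genes took up 1.90% and 2.02% of EC UMIs in the mice labelled EC-KO and 2.14% and 2.17% in those labelled EC-WT, or 2.05% and 2.10% against 2.23% and 2.26% with Rn45s left out. Over all kept cells, smooth muscle-like ones included, the shares overlapped, at 2.04% and 2.29% against 2.17% and 2.20%.

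Markers of other cell types moved with the labels in EC. The 11 smooth muscle markers summed to 552 to 931 CPM in the mice labelled EC-KO and 206 to 329 CPM in those labelled EC-WT, and the 8 fibroblast markers to 1817 to 2648 against 1219 to 1541 CPM. Their part in the values above was not tested beyond leaving cells out. In EC with no UMI of Acta2, Tagln, Myh11 or Dcn, where 33 of the 42 genes could be tested, none was called and the median was −0.20. Cells with few UMIs meet this limit more easily, and depth was not matched. 

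**Figure D2:**
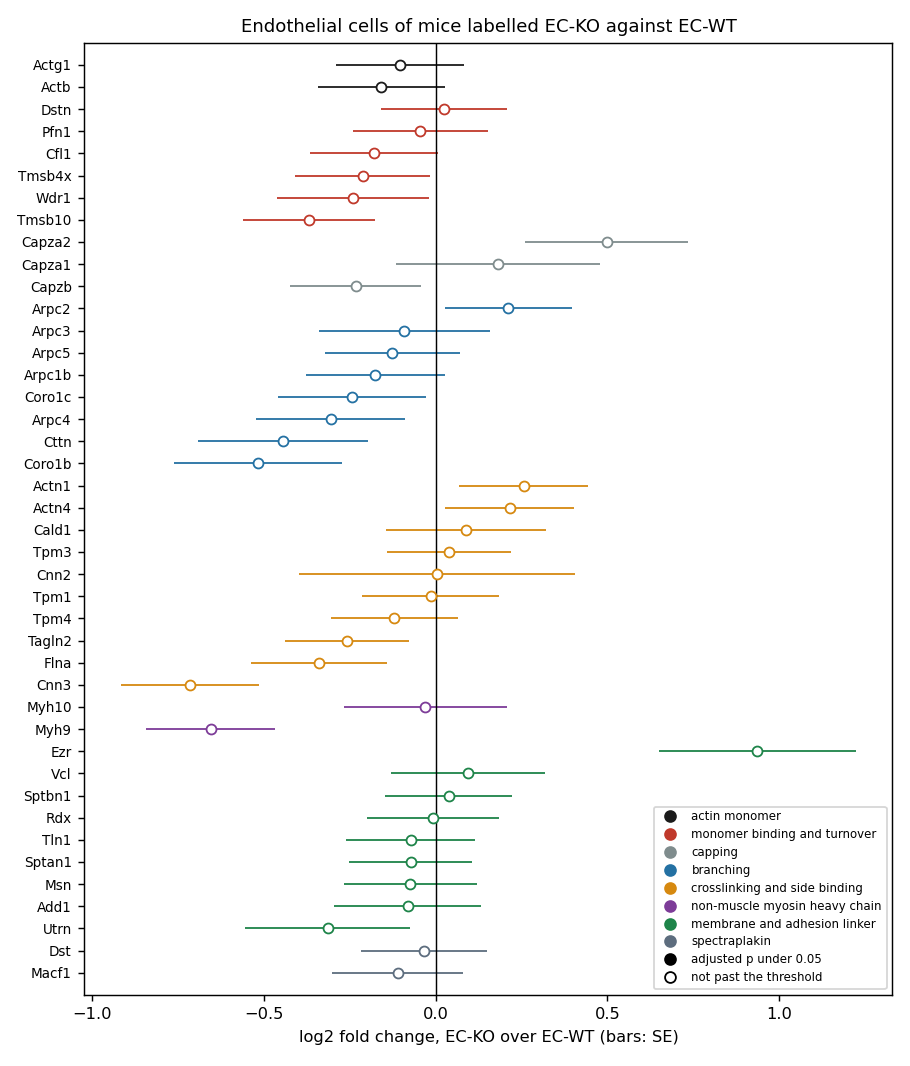
Log2 fold change of each gene in EC, mice labelled EC-KO over mice labelled EC-WT (2 mice each), with bars of 1 SE and colours by role. No symbol is filled, since none passed the threshold; Ezr is the highest at 0.94 and Cnn3 the lowest at −0.72.

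Of the other actin genes outside the 42 that are reported here, none was called between the labelled groups. This held for 12 of 16 listed nucleators and elongators, 6 of 7 genes of myosin light chains and their phosphatase, 13 of 13 genes of severing and focal adhesion, and 3 of 5 genes of serum response factor and its cofactors that could be tested. Their medians on the log2 scale were 0.09, −0.04, −0.06 and −0.40. The list of severing and focal adhesion also holds Vim (vimentin), which is not an actin gene.

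A comparison of the smooth muscle-like cells with the EC of the same mice shows which of the 42 mRNAs differ in level between these classes, with the smooth muscle actin Acta2 left out as a marker. Of the 42 genes, 10 were higher in smooth muscle-like cells, against 3.66% of the 5246 genes tested, and 2 were lower, against 5.89%, or 12 in either direction, against 9.55% (edgeR quasi-likelihood test with the mouse as a block, adjusted P under 0.05). Of the 10 genes that crosslink or coat filaments, 5 were higher (Flna, Tpm1, Cnn2, Actn1 and Cald1), the first 3 of them by more than any other of the 42 genes, and none of the 8 branching genes or 3 cappers was called. The 42 genes took up 3.88% ± 0.69 of smooth muscle-like UMIs and 2.06% ± 0.12 of EC UMIs (SD, n = 4 mice). The crosslinking genes summed to 12189 ± 1306 CPM against 3834 ± 199 CPM, and the linkers to membranes and adhesions to 4513 ± 921 against 4647 ± 135 CPM.

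Flna (filamin A, which ties crossing filaments into a mesh; chrX:74223461-74249820, minus strand) had 3429 and 3978 CPM in the smooth muscle-like cells of the mice labelled EC-KO and 2758 and 3996 CPM in those of the mice labelled EC-WT. In EC it had 294 to 475 CPM, so that the classes lay far apart in every mouse, and the log2 fold change was 3.05 (SE 0.48, edgeR adjusted P = 1.76e-08). Tpm1 (tropomyosin 1; chr9:67022590-67049406, minus strand) had 1904, 2384, 3283 and 1332 CPM in smooth muscle-like cells and 214 to 259 CPM in EC. Again no mouse overlapped, with a log2 fold change of 2.93 (SE 0.45, edgeR adjusted P = 8.73e-09).

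Cnn2 (chr10:79988584-79996062, plus strand) had 333, 504, 131 and 303 CPM in smooth muscle-like cells, from 29, 49, 1 and 5 UMIs, and 26.5 to 60.0 CPM in EC. It was higher in 4 of 4 mice, by 2.88 on the log2 scale (SE 0.53, edgeR adjusted P = 3.54e-06). Dstn (destrin, which like cofilin takes filaments apart; chr2:143915320-143943324, plus strand) had 3177, 3741, 3152 and 1574 CPM against 407 to 475 CPM in EC. The log2 fold change was 2.44 (SE 0.47, edgeR adjusted P = 9.32e-06).

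Vcl (chr14:20929398-21033676, plus strand) had 608, 740, 525 and 545 CPM in smooth muscle-like cells and 120 to 145 CPM in EC, a log2 fold change of 2.07 (SE 0.46, edgeR adjusted P = 2.47e-04). Actn1 (chr12:80167547-80260371, minus strand) had 2030, 2210, 1445 and 2543 CPM against 378 to 509 CPM, a log2 fold change of 2.03 (SE 0.45). Both genes were higher in 4 of 4 mice, with no overlap. Cald1 (chr6:34598500-34775473, plus strand) had 1709, 1953, 3546 and 726 CPM against 284 to 482 CPM, and its log2 fold change was 1.95 (SE 0.44, edgeR adjusted P = 3.47e-04).

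The other 3 genes called higher were Myh10, Actb and Tln1. Myh10 (chr11:68691559-68816632, plus strand) had 436 and 719 CPM in the mice labelled EC-KO but 131 and 121 CPM in those labelled EC-WT, from 1 and 2 UMIs, against 88.9 to 106 CPM in EC, and its log2 fold change was 1.83 (SE 0.51). Actb had 5757, 6136, 7224 and 3753 CPM against 1507 to 1896 CPM in EC, a log2 fold change of 1.45 (SE 0.49). Tln1 (talin, which couples integrins to filaments; chr4:43531519-43562691, minus strand) had 585, 709, 1576 and 787 CPM against 263 to 295 CPM, a log2 fold change of 1.36 (SE 0.42). Adjusted P for these 3 genes was 0.00617, 0.0332 and 0.0195 by edgeR, and DESeq2 did not call Myh10 (log2 fold change 1.65, adjusted P = 0.0646).

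Both genes that were lower belong to families with a member that was not. Tpm3 (chr3:90072649-90100902, plus strand) had 149, 144, 0 and 60.5 CPM in smooth muscle-like cells and 497 to 513 CPM in EC, and its log2 fold change was −2.12 (SE 0.52, edgeR adjusted P = 0.00106). Tmsb10 (thymosin beta 10, a monomer-binding peptide; chr6:72957347-72958748, minus strand) had 103, 144, 263 and 182 CPM against 351 to 542 CPM, a log2 fold change of −1.55 (SE 0.50, edgeR adjusted P = 0.0254). Each was lower in 4 of 4 mice. Tpm3 kept its call with each mouse left out in turn, whereas Tmsb10 lost it without EC-KO mouse 1, EC-KO mouse 2 or EC-WT mouse 2, with log2 fold changes of −1.57, −1.73 and −1.46. Of all 42 genes, 14 were higher in 4 of 4 mice, against 6.39% of all genes tested, and 8 were lower in 4 of 4, against 21.8%. In 14 genes every smooth muscle-like sum lay above every EC sum (4.5% of all genes), and in 6 every one lay below (15%).

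Among the most abundant genes of EC, Sptan1 and Sptbn1 had log2 fold changes of −1.22 (SE 0.46) and −1.17 (SE 0.45), lower in 4 of 4 mice, with edgeR adjusted P of 0.0730 and 0.0856. DESeq2 called both lower, which made 4 genes lower in all. Tmsb4x had 4186, 4533, 5122 and 3148 CPM against 1833 to 2546 CPM in EC and a log2 fold change of 0.75 (SE 0.47, edgeR adjusted P = 0.428). Ezr had a log2 fold change of −1.87 (SE 0.89, edgeR adjusted P = 0.211), from 2, 1, 1 and 0 UMIs. Actg1 had one of −0.19 (SE 0.47), which turned to 0.08 with library sizes not adjusted by TMM, and Cfl1 one of 0.24 (SE 0.44), which turned to −0.05 with no filter on low counts.

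**Figure D3:**
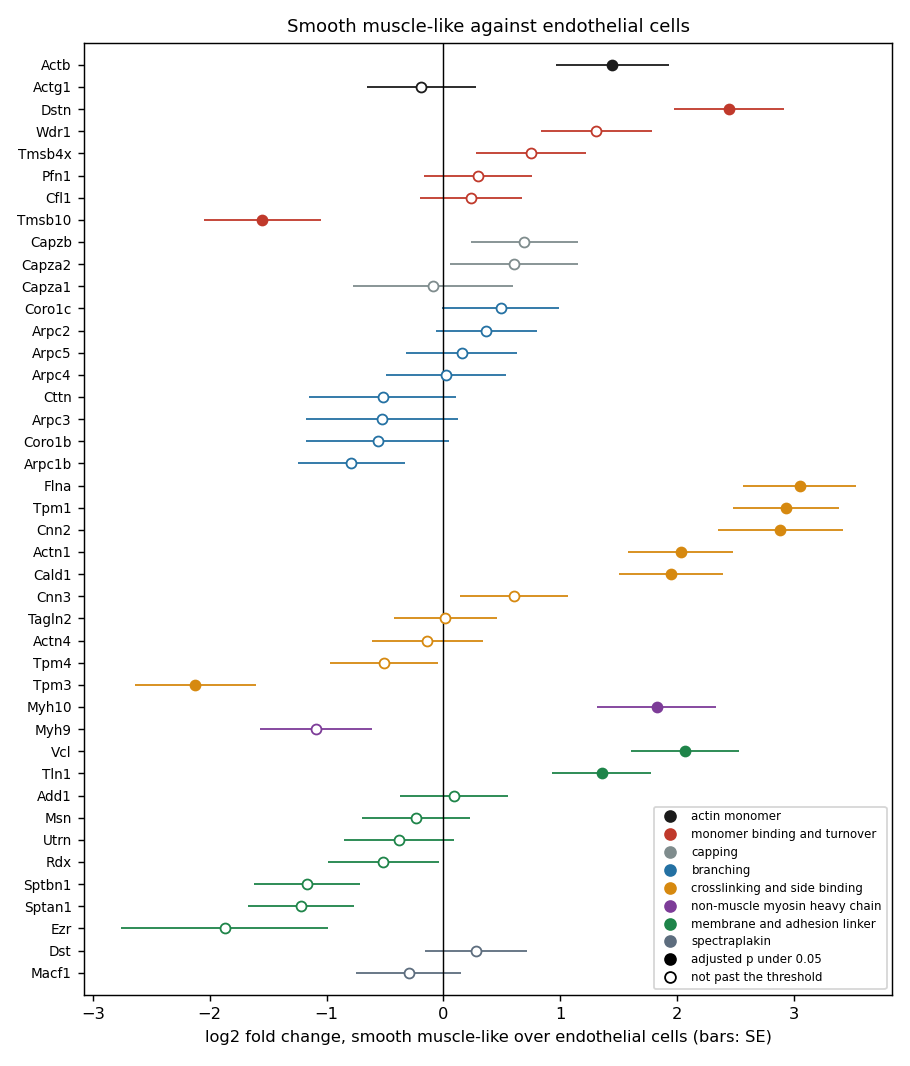
Log2 fold change of each gene, smooth muscle-like cells over EC of the same 4 mice, with bars of 1 SE and colours by role. Filled symbols passed the threshold: 10 genes lie to the right, led by Flna at 3.05, and Tpm3 at −2.12 and Tmsb10 at −1.55 lie to the left.

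Over all 5246 genes the median log2 fold change was −0.25, and over the 42 genes it was 0.12, or 0.28 with library sizes not adjusted by TMM, −0.16 with no filter on low counts, −0.50 with read counts, 0.51 with only the mice that had 5 or more such cells and 1.67 over the 10 genes with at least 10 UMIs in every sum. The number of calls leans on the plates labelled EC-KO, which hold 19 of the 24 smooth muscle-like cells. Without EC-KO mouse 1, 6 of the genes were called higher, and without EC-KO mouse 2, 4 were (Flna, Tpm1, Dstn and Actn1). Without 1 or the other mouse labelled EC-WT, 11 were called higher. Calls over all genes fell as well, from 501 to 189 without EC-KO mouse 1 and 159 without EC-KO mouse 2. The log2 fold changes of the genes that lost their call stayed above 0, at 1.19 (Actb), 1.40 (Myh10), 1.34 (Tln1) and 1.94 (Vcl) without EC-KO mouse 1 and at 1.06 (Myh10) to 2.17 (Cnn2) without EC-KO mouse 2. With only the 2 mice that had 5 or more such cells, both labelled EC-KO, 13 were higher and 2 lower. The number of all genes called in that fit is not given here, so these counts have no share to be set against. Read counts in place of UMIs, which carry PCR duplicates, called 3 higher and 0 lower, where 128 genes were called of all. Fibroblast markers, 1576 to 13785 CPM in smooth muscle-like cells and 1219 to 2648 CPM in EC, moved with the classes, and their part was not tested; endothelial markers still summed to 2259 to 6538 CPM in the smooth muscle-like cells.

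Within some families of related genes, the split of UMIs between members differed between the classes. Tpm1 held 78.6% to 86.2% of the UMIs of Tpm1, Tpm3 and Tpm4 in smooth muscle-like cells and 18.6% to 22.6% in EC, whereas Tpm3 held 0% to 6.60% and 43.1% to 46.4%. Actb held 72.1%, 70.2%, 63.2% and 83.8% of Actb and Actg1 in smooth muscle-like cells and 42.8% to 46.4% in EC. Dstn held 68.4% to 76.8% of Dstn and Cfl1, against 33.3% to 37.6%. For Actn1 among the alpha-actinins the shares were 62.5% to 100% and 35.2% to 41.8%, for Cnn2 beside Cnn3 38.5% to 54.4% and 9.85% to 23.0%, and for Tmsb10 beside Tmsb4x 2.41% to 5.45% and 14.2% to 21.1%. In each of these the classes did not overlap, although the share of Cnn2 in the smooth muscle-like cells of mouse 1 labelled EC-WT came from 2 UMIs. Myh10 held 67.9% and 81.4% of the UMIs of Myh9 and Myh10 in the smooth muscle-like cells of the mice labelled EC-KO, but the 25% and 50% of those labelled EC-WT came from 4 UMIs each. In other families the ranges of the classes overlapped. Sptan1 held 10.7% to 40% of the spectrin UMIs in smooth muscle-like cells and 27.9% to 30.3% in EC. Capza1 held 0% to 100% and 32.9% to 44.1% of Capza1 and Capza2. Shares of ezrin, radixin and moesin also overlapped. These shares are descriptions with no test, and the families leave out the smooth muscle actin, tropomyosin and calponin genes that served as markers.

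**Figure D4:**
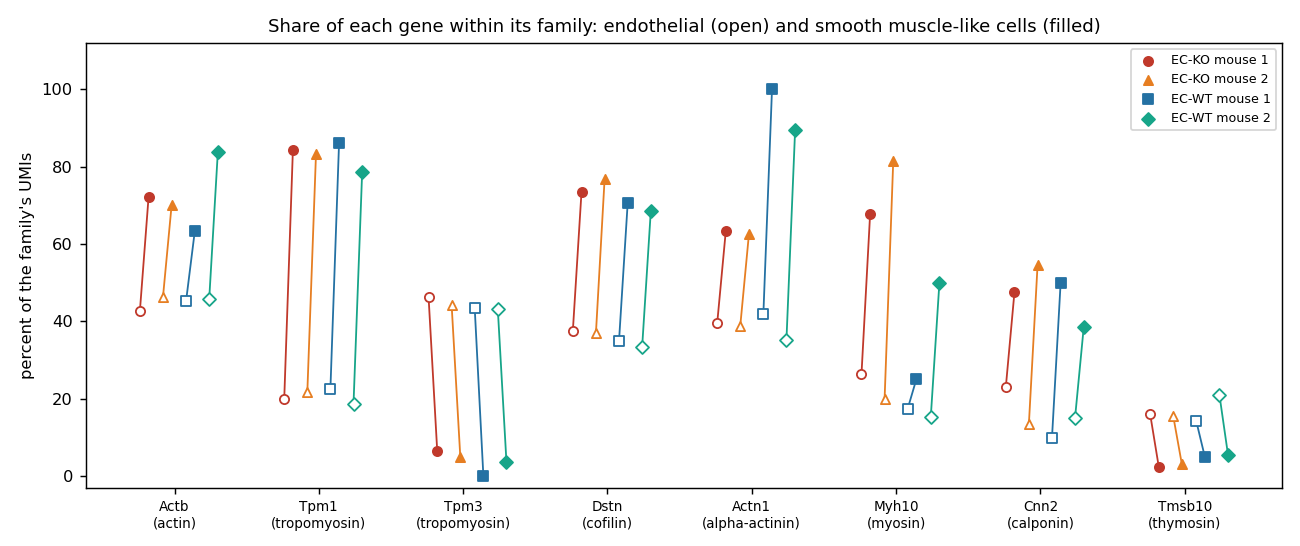
Share of the UMIs of a gene's family held by that gene (percent), in EC (open symbols) and smooth muscle-like cells (filled symbols) of each mouse, joined by a line. The filled symbols of Tpm1, Actb, Dstn, Actn1, Myh10 and Cnn2 lie above the open ones in every mouse, with Tpm1 at most 22.6% in EC and at least 78.6% in smooth muscle-like cells, and those of Tpm3 and Tmsb10 lie below.

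Many actin genes are known targets of serum response factor, which binds a site called the CArG box. RefSeq promoter sequences (GRCm38.p6, 250 bases before to 50 after a transcription start) were held for 39 of the 42 genes, the exceptions being Actb, Cttn and Coro1b. The CArG box, a palindromic motif of 10 bases that reads alike on both strands, was found in 4 of the 39 genes and in 1.81% of all 27025 genes of the table, or in 4 of 46 promoter sequences of these genes and in 1.63% of all 32851. The stretches around it are shown because Cnn2 and Vcl are among the genes higher in smooth muscle-like cells and Actg1 is among the most abundant in EC. The box is in capitals and each sequence runs 5′ to 3′ on the strand of the gene.
Cnn2 (chr10:79988519-79988578, plus strand): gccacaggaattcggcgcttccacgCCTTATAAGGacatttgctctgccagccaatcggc
Vcl (chr14:20929148-20929205, plus strand): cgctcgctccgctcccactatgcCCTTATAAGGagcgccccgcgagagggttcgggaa
Actg1 (chr11:120348551-120348610, minus strand): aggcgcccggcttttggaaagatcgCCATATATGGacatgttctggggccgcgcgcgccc
Arpc4 (chr6:113377863-113377897, plus strand): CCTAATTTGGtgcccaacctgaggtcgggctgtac

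The box began 56 bases before the RefSeq start in Cnn2, 227 in Vcl, 90 in Actg1 and 250 in Arpc4 (a subunit of the Arp2/3 complex), the edge of the window. These starts need not equal those of the gene positions given above, which come from GENCODE. Cnn2 and Vcl carry the same 10 bases. In the comparison above, the log2 fold changes of Cnn2, Vcl, Actg1 and Arpc4 were 2.88, 2.07, −0.19 and 0.02. A link between the box and the fold change was not tested. The match is a description of these letters, and no binding was measured. The box was not found in this window for 7 other genes called higher in smooth muscle-like cells (Flna, Tpm1, Dstn, Actn1, Cald1, Myh10 and Tln1), and for these and the rest of the 35 genes without it, that says only that the letters are not there.

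Of the actin genes outside the 42, those of myosin light chains and their phosphatase had 4 of 7 called higher in smooth muscle-like cells, but Myl9 and Mylk were among the markers that chose the cells. The other 2 were Myl6 (the essential light chain), at 5943 ± 2139 CPM against 1345 ± 86.7 CPM, and Ppp1cb (a catalytic subunit of the phosphatase), at 510 ± 153 against 128 ± 18.1 CPM. Of 12 genes of severing and focal adhesion, Pxn (paxillin), Lima1 (which bundles filaments) and Lasp1 were lower, with log2 fold changes of −2.11, −2.05 and −1.60 that rest on at most 13 UMIs in any mouse, and none was higher. None of 12 nucleators and elongators was called. The difference between the classes did not pass a test for dependence on the labelled genotype for any of the 42 genes (edgeR interaction term, smallest adjusted P = 0.291; 0.0191% of all genes tested passed), and 5 had an unadjusted P under 0.05, against 5.55% of all genes.

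EC were last divided by genes that respond to flow and to strain. Within each mouse, EC above its median share of UMIs on Klf2 and Klf4 and not above it on Edn1, Thbs1, Cyr61 and Ctgf formed the Klf class, and EC with the opposite pattern the Edn1 class, with 46, 25, 33 and 23 cells in each class. The classes are ranges of a score and not cell types. Of the 41 genes that could be tested, 2 were higher in the Edn1 class, against 1.52% of 3688 genes, and 0 were lower, against 1.22%. In all, 2 were called, against 2.74% (edgeR quasi-likelihood test with the mouse as a block, adjusted P under 0.05). DESeq2 called 1 higher and 0 lower. An unadjusted edgeR P under 0.05 was found for 9 of the 41, against 12.1% of all genes.

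Tmsb10 had 493, 471, 542 and 654 CPM in the Edn1 class and 274.1, 324, 236 and 428 CPM in the Klf class. Every mouse moved the same way and the classes did not overlap, with a log2 fold change of 0.84 (SE 0.17, edgeR adjusted P = 0.00857). Myh10 had 161, 102, 108 and 139 CPM in the Edn1 class, from 53, 27, 23 and 25 UMIs, and 37.4, 55.0, 74.3 and 66.9 CPM in the Klf class. It too was higher in 4 of 4 mice without overlap, by 1.26 on the log2 scale (SE 0.32, edgeR adjusted P = 0.0357).

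Cnn3 was higher in the Edn1 class in 4 of 4 mice, with 231, 237, 321 and 421 CPM against 168, 165, 216 and 268 CPM, but the ranges overlapped and the log2 fold change of 0.61 (SE 0.18) had an edgeR adjusted P of 0.0919. With cells of at least 2000 UMIs Cnn3 was called (log2 fold change 0.77, edgeR adjusted P = 0.0443) and Myh10 was not (1.18, edgeR adjusted P = 0.0550). At the other end, Ezr had a log2 fold change of −0.88 (SE 0.37, edgeR adjusted P = 0.291), Utrn (utrophin, a membrane linker) of −0.32 (SE 0.17) and Dst of −0.31 (SE 0.14), the last lower in 4 of 4 mice without overlap. For Actb it was 0.34 (SE 0.14, edgeR adjusted P = 0.282), higher in 3 of 4 mice, and for Actg1 −0.12 (SE 0.13), lower in 3 of 4 mice. The share of Actb among the 2 actins was 46.4%, 46.5%, 45.5% and 46.2% in the Edn1 class and 36.6%, 41.4%, 37.9% and 37.8% in the Klf class, with no overlap and no test.

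Of the 41 genes, 7 were higher in the Edn1 class in 4 of 4 mice (7.67% of all genes tested) and 3 were lower (12%). The sums of the classes did not overlap for 2 that were higher (2.01% of all genes) and 1 that was lower (2.85%). Sptbn1, Sptan1, Cfl1 and Tmsb4x had log2 fold changes between 0.04 and 0.12, with SE of 0.12 to 0.14. The median over the 41 genes was 0.08 against 0.01 over all genes, with values from 0.01 without TMM factors to 0.15 without EC-WT mouse 2 and 0.16 with read counts, and the UMIs of all 42 took up 2.08% ± 0.12 of the Edn1 class and 2.02% ± 0.16 of the Klf class (SD, n = 4). The range of the Edn1 class, 1.94% to 2.19%, lay within that of the Klf class, 1.85% to 2.19%.

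**Figure D5:**
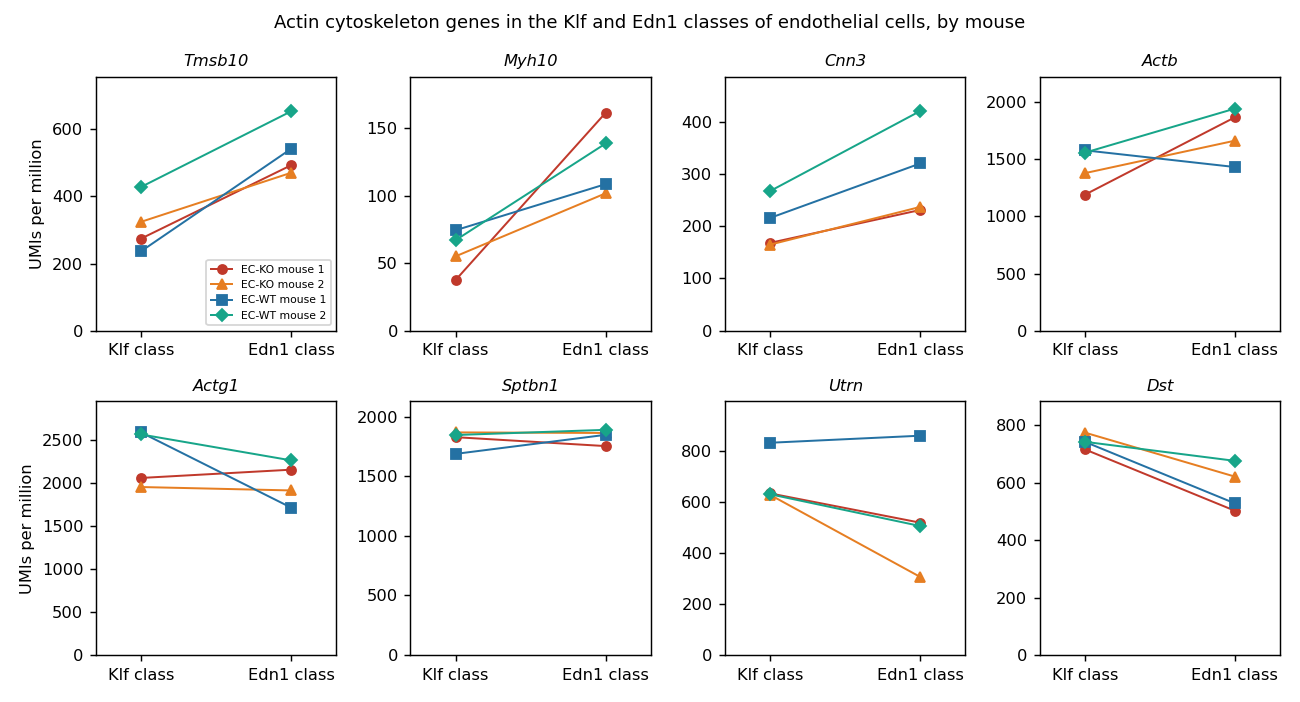
CPM of 8 of the genes in the Klf and Edn1 classes of EC, with 1 line per mouse and axes from 0. Tmsb10, Myh10 and Cnn3 lie higher and Dst lower in the Edn1 class of all 4 mice, and Sptbn1 lies between 1688 and 1890 CPM.

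Other values moved with these classes. Cells of the Edn1 class were deeper, with medians of 6641, 11868, 4155 and 6876 UMIs against 4827, 6562, 3750 and 5539 UMIs. Fibroblast markers summed to 1226 to 4448 CPM in the Edn1 class and 1229 to 1850 CPM in the Klf class, and 12 genes that rise on dissociation to 980 to 1619 against 1417 to 3407 CPM. Of the fibroblast markers, Dcn and Col3a1 were called higher in the Edn1 class, and of the dissociation genes, Junb, Ier2 and Hspa1b were called lower. The 11 smooth muscle markers summed to 292 to 1107 CPM in the Edn1 class and 155 to 852 CPM in the Klf class, and Tagln among them was called higher (log2 fold change 1.25, SE 0.33, edgeR adjusted P = 0.0462), while Myh10 was itself higher in smooth muscle-like cells. The part of these values in the result was not tested beyond leaving cells out. In cells with no Dcn UMI the log2 fold changes were 1.31 for Myh10 and 0.72 for Tmsb10, and neither was called (edgeR adjusted P = 0.101 for both). With all cells thinned to 1000 UMIs Myh10 could not be tested, and Tmsb10 had a log2 fold change of 0.45 and was not called (edgeR adjusted P = 0.569). With classes from Klf2 and Klf4 alone neither was called, at 0.83 for Myh10 and 0.48 for Tmsb10. Tmsb10 kept its call with each mouse left out in turn, and Myh10 lost its call without EC-KO mouse 1, EC-KO mouse 2 or EC-WT mouse 2, with log2 fold changes of 0.87, 1.36 and 1.32. Among the other actin genes reported here only Zyx (zyxin, found at adhesions under strain) was called, at 913 ± 138 CPM in the Edn1 class and 605 ± 180 CPM in the Klf class, a log2 fold change of 0.68 (SE 0.15). No gene passed the test for dependence on the labelled genotype (edgeR interaction term, smallest adjusted P of the genes 0.997; 0 at an unadjusted P under 0.05, against 3.71% of all genes).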

How the data were processed

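The authors sequenced 1 SORT-seq plate per mouse, aligned reads to the mouse genome (GRCm38 and mm10, BWA 0.7.15 per the submitters' notes, which also name Seurat) and deposited, for each plate, UMI counts, read counts, and expected counts of transcripts estimated from UMI counts by correcting for identifiers seen by chance (4096 possible). Each mouse is a replicate. Reads that map to near-identical copies could not be followed, since their treatment and the use of strand are not given in the sources used here. The levels of Actb, Actg1, Cfl1, Pfn1, Tmsb4x and Tmsb10, and of 9 genes that overlap another listed gene (Cfl1, Capza1, Arpc1b, Arpc4, Coro1b, Actn4, Ezr, Vcl and Tln1), are uncertain to that extent. Positions come from the GENCODE annotation of GRCm38.

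UMI counts as deposited were summed per mouse, and per class where classes were compared, without spike-in and mitochondrial rows. A cell had at least 1000 UMIs and at most 25% mitochondrial UMIs, and no doublet caller was run. Sums were tested with edgeR 4.0.16 (TMM, filterByExpr, quasi-likelihood, Benjamini-Hochberg over all genes tested, threshold 0.05). Smooth muscle-like cells and Edn1-class cells were compared with the mouse as a block. CPM is a gene's UMIs per 1000000 UMIs of its sum. Alternatives used DESeq2 1.42.0, limma 3.58.1 (mean CPM over cells, log2 with a pseudocount of 1), read counts, transcript counts (rounded), no TMM factors, other filters on counts and cells, and each mouse left out. Scripts ran in Python 3.11.15 (numpy 2.4.6, pandas 2.3.3, matplotlib 3.10.9) and R 4.3.3.

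In simulated data with 200 genes changed by 2 on the log2 scale, edgeR recovered 180 of them in the genotype comparison with 0 others called, 116 in the comparison with smooth muscle-like cells with 4 others, and 191 in the comparison of the Edn1 and Klf classes with 4 others.

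The 42 genes and the other gene lists were chosen with earlier results of these data known. In each comparison the genes named are those called, the 3 with the highest and the 3 with the lowest log2 fold change, and the 6 with the highest mean CPM in EC, with the called genes of the other actin lists. One of those lists is not reported here. Levels and correlations are given for any of the 42. Intervals of fold changes rest on an SE worked back from the edgeR F statistic, whose dispersion draws on all genes tested. The SE is therefore not a measure of the spread of that gene alone over the mice. For smooth muscle-like cells against EC it was 0.47 for Actg1 and 0.44 for Cfl1, whose SD in smooth muscle-like cells were 1428 and 249 CPM. The limit for a count of 0 covers counting error only.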

Additional observations from a re-analysis of the deposited data

Results flagged for a closer look

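In 3 of 60 groups of 4 sums, 1 mouse lay apart from the others by more of the group's range than Dixon's 95% criterion allows (0.872, 0.957 and 0.971 of the range, in the order given here), and chance gives about 1 in 20. Sptbn1 had 1513.5 CPM, from 25 UMIs, in the smooth muscle-like cells of mouse 2 labelled EC-WT, against 780 to 874 CPM in the other mice. Cfl1 had 1004 CPM in the Klf class of mouse 2 labelled EC-WT, against 660 to 675 CPM. Utrn had 831 CPM in the Klf class of mouse 1 labelled EC-WT, against 626 to 632 CPM.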

How the results depend on the processing

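Between the labelled genotypes, none of the 42 genes was called under any alternative, and no single gene named crossed the threshold. The number of all genes called was 0, and became 19 with no filter on low counts, 2 with at least 10 UMIs in every sum, 1 with cells of at least 2000 UMIs, 10 over all kept cells, 1 in EC with no UMI of Acta2, Tagln, Myh11 or Dcn, and 16 to 72 with each mouse left out, where the lone mouse of a group is assumed to vary like the others. The median over the genes stayed below 0, between −0.20 and −0.05. Values near 0 changed sign. Actg1, Sptan1 and Sptbn1 had 0.0036, 0.0436 and −0.0760 with read counts. Sptbn1 also had −0.0276 without EC-KO mouse 1 (up to 0.11 with another mouse left out), −0.0292 over all kept cells, −0.22 in EC with no UMI of Acta2, Tagln, Myh11 or Dcn and −0.12 with limma. Actb had 0.13 over all kept cells, and Cfl1 had 0.0003 between the 2 mice of 1 flow cell (a value with no test). These were EC-KO mouse 2 and EC-WT mouse 1, and neither of the other mice shared a flow cell. The flow cell was inferred from the names under which the plates were deposited. Epas1 had −0.0375 without EC-WT mouse 2, against up to 0.47 without another mouse.

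Fitted with the replicate number as a block, the genotype comparison also called 0 genes and 0 of the 42, with a median of −0.09. The numbers do not pair the mice: deviations of same-numbered mice from their group means had a correlation of −0.028 over 5760 genes.

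In smooth muscle-like cells against EC, the 10 genes higher became 3 and the 2 lower became 0 with read counts, where 128 genes were called of all. With at least 10 UMIs in every sum only 10 of the 42 could be tested, of which 0 were lower, and 32 genes were called. Genes called lower were 4 with DESeq2, 4 with no filter, 1 with cells of at least 2000 UMIs and 5 without the mouse block, where 844 genes were called of all. With DESeq2, no filter or cells of at least 2000 UMIs, all genes called stayed within a factor of 1.5 of 501. With each mouse left out, 4 to 11 were higher, 1 to 3 lower, and 159 to 674 genes were called. Flna and Tpm1 were called in each of the 17 alternatives. Actg1 turned to 0.0794 without TMM factors, 0.29 without EC-WT mouse 2 (as low as −0.50 without another mouse) and 0.37 with only the mice that had 5 or more such cells. Cfl1 turned to −0.0506 with no filter, −0.24 with read counts and −0.0421 without EC-KO mouse 1 (up to 0.53 without another mouse).

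In the Edn1 class against the Klf class, the 2 genes higher became 1 without TMM factors, 1 with DESeq2 (44 genes called of all), 1 with no mitochondrial limit, stayed at 2 with cells of at least 2000 UMIs with Cnn3 in place of Myh10, became 0 with read counts (0 genes), 0 with thinned cells (17 genes), where Tmsb10 but not Myh10 could be tested, 0 with classes from Klf2 and Klf4 alone (35 genes), 0 in EC with no Dcn UMI (48 genes) and 1 without cells of over 10 Dcn UMIs. They became 1 to 2 with each mouse left out (44 to 98 genes), and 42 genes were called without the mouse block. Sptan1 turned to −0.0075 without TMM factors and −0.0881 with read counts, and had 0.64 with thinned cells. Tmsb4x turned to −0.0269 without TMM factors, −0.0270 with cells of at least 500 UMIs, −0.0277 in EC with no Dcn UMI and −0.0155 with read counts, and ran from −0.0357 (without EC-WT mouse 1) to 0.16 with each mouse left out. Actg1 turned to 0.0636 with thinned cells.

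The share of UMIs on the 42 genes averaged 2.16% and 2.18% (mice labelled EC-KO and EC-WT) over all kept cells, 1.57% and 1.70% without Tmsb4x, Actb and Tmsb10, and 2.07% and 2.25% without Rn45s. The cause of these changes was not tested. The alternatives on Rn45s, on Dcn in the Edn1 and Klf classes and on mice or cells with few smooth muscle UMIs were chosen after the data were seen, as was leaving out cells of over 10 Dcn UMIs. Groups held 2 mice and 2 to 13 smooth muscle-like cells a mouse, and recovery of differences below 2 on the log2 scale was not simulated.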
